A study of Mus musculus with 931 samples.

Results

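The genes described here are 31 members of the sterol and fatty acid synthesis pathways. They were chosen by symbol from a list drawn up with earlier results of these data known. Their shares set beside those of all genes are therefore descriptive. All 31 were found among the 40824 gene rows of both the bulk and the single-cell read count tables. They fall into a mevalonate arm of 8 genes, a sterol arm of 11, regulators and transport with 6, and a fatty acid arm of 6. The series followed mouse pancreatic islet β and α cells through maturation at 7 stages, E17.5 before birth, P0 at birth, and then P3, P9, P15, P18 and P60, counted in days of gestation (E) or after birth (P). Bulk RNA sequencing covered 14 libraries of sorted RFP+ β cells, 2 per stage, each made from many cells by poly(A) selection and a strand-specific kit. Single-cell libraries were made by Smart-seq2, a full-length method without molecular identifiers, and 866 of them came from unselected cells: 328 α cells in 20 batches and 538 β cells in 25 batches. α cells came from Gcg-Cre, Rosa-RFP mice on a mixed C57BL/6, CBA/J and C3H background and were not collected at P3. β cells, bulk and single, came from Ins1-RFP mice on a mixed C57BL/6 and C3H background, so the reporter and the strain mix change together with the cell type and cannot be told apart from it. Another 21 β cells, from the same line and in 1 batch each at P0 and P9, had been chosen because a PCR screen found at least 2 of Pbk, Foxm1 and Cdk1, genes of dividing cells, expressed in them. The labels give no treatment for any of these groups.

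Cells build cholesterol from acetyl-CoA. The mevalonate arm joins acetyl-CoA units and turns them into isoprenoid diphosphates, and the sterol arm condenses these to squalene, closes the ring system and trims lanosterol to cholesterol. The fatty acid arm draws on the same acetyl-CoA pool, which ATP citrate lyase (Acly) supplies from citrate. Both routes are switched on by the SREBP transcription factors, which Srebf1 and Srebf2 encode. SCAP carries the SREBP precursors out of the endoplasmic reticulum when sterols are low, and the INSIG proteins hold SCAP back when sterols are plentiful. Insig1 is itself a target of the SREBPs and is often read as a sensor of their activity. In β cells, cholesterol is a structural part of the insulin granule membrane, and citrate leaving the mitochondria is linked to glucose sensing.

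The bulk libraries held 10.3 M to 21.4 M reads, the batches 5.96 M to 49.1 M reads from 5 to 39 cells each, and the cells 0.521 M to 1.80 M (median 1.15 M). Levels are CPM, read counts divided by library size and scaled by TMM, and a difference was called at an adjusted p under 0.05 from edgeR's quasi-likelihood test, fitted and adjusted over all genes that passed a low-count filter (16086 in bulk, 18537 in single cells). All 31 members passed that filter in every fit. The replicate is the library in bulk and the batch in single cells, and since the labels name batches but no animals, the p-values measure the spread between libraries or batches, which may be technical. The marker genes fitted the labels: the summed level of 7 α markers was 72365 to 609819 CPM in α batches and 2374 to 4387 CPM in β batches, and that of 7 β markers 495 to 5987 CPM in α batches and 176390 to 803847 CPM in β batches. Acinar RNA, Xist, detected genes and collection method differ among the samples and touch the results below. In bulk, the summed level of 10 acinar enzyme genes was 1238 to 4112 CPM at E17.5 and 194 to 721 CPM at P0, but 12762 to 53012 CPM from P3 on. Xist, which marks female cells, was at 517 to 609 CPM in both E17.5 bulk libraries, at 1.56 to 242 CPM at P0, and at 0.425 to 0.767 CPM at P60. In α batches it was at no more than 0.448 CPM at every stage after E17.5, against 52.8 to 283 CPM at E17.5. In β batches Xist reached 143, 131 and 138 CPM at E17.5, P0 and P3, and no more than 1.99 CPM later. The median number of genes detected per cell was 6781 at P60, against 8610 at E17.5, in α cells, and 7624 at P60, against 8582 at E17.5, in β cells. Of the 45 batches 23 were FACS-sorted and 22 hand-picked, which the single-cell fit carries as a term. Split by method, several groups of the stages compared keep 1 batch: α E17.5 and P9 and β P0 among hand-picked batches, and α P0 and β E17.5 and P9 among FACS-sorted ones. A value within 1 method that involves such a group assumes that the lone batch varies like the others, so a pass or a miss there carries little weight.

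Promoters of 4 members called in results below are shown because these genes share known regulators. Other called members with a window, such as Msmo1, Acly and Cyp51, are not shown. Windows of 300 bases around the gene start, most of each upstream, were taken from RefSeq (GRCm38.p6) and covered 25 of the 31 members. Both strands of the whole window were searched for CCAAT, the core of the NF-Y site (ATTGG on the other strand), and for TCACNCCA, a form of the sterol regulatory element that SREBPs bind (TGGNGTGA on the other strand). CCAAT was present in 21 of the 25 windows (84%), against 41.1% of 27025 gene promoters of the same length. TCACNCCA was present in 3 of the 25 (12%: Hmgcs1, Msmo1 and Srebf2), against 4.97% of all promoters, and its stricter form TCACCCCA in 2 (8%: Hmgcs1 and Srebf2), against 1.77%. In the 4 stretches that follow, each the upstream part of a window, 5′ to 3′ on the gene's own strand and trimmed before the annotated gene, capitals mark CCAAT or TCACNCCA on either strand. They lie at chr13:119690101-119690350 (+ strand) for Hmgcs1, the synthase that makes HMG-CoA, at chr9:42264301-42264550 (− strand) for Sc5d, a sterol desaturase late in the pathway, at chr5:28071162-28071362 (+ strand) for Insig1, and at chr15:82147019-82147180 (+ strand) for Srebf2.
Hmgcs1: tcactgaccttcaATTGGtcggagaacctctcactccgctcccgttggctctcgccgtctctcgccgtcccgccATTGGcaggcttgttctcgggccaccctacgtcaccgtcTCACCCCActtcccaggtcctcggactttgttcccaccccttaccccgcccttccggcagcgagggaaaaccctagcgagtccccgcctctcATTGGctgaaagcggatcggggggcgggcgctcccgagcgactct
Sc5d: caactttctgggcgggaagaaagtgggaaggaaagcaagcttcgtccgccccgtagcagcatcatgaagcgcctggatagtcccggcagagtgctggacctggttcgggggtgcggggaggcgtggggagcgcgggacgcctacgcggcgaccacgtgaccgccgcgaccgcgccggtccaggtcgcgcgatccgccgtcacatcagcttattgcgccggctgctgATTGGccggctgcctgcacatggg
Insig1: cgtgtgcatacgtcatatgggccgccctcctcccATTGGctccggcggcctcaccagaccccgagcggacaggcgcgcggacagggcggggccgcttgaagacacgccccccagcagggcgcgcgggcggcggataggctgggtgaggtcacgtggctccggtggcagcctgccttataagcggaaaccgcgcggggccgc
Srebf2: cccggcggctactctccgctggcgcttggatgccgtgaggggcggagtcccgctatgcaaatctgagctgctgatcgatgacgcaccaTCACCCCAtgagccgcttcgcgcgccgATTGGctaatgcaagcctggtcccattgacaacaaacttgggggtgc
In the parts shown, Hmgcs1 holds ATTGG at 3 places and TCACCCCA once, Srebf2 holds each once, and Insig1 and Sc5d hold ATTGG once. Both members with TCACCCCA are among the 4 shown, so the display does not reflect the 8% share. A match describes the letters in the window and is not a measured binding site.

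The 31 genes differed widely in level. Levels per kilobase of gene (TPM) were computed for each cell and averaged over the cells of a batch. These means served to rank genes within a group and, at P60, to set α beside β cells on another scale. By this measure Acly ranked 1st of the 31 in α and in β cells at every stage. At P60 it had 131 ± 19.7 TPM in α cells and 219 ± 48.9 TPM in β cells (SD over 5 batches each). In P60 α cells the next were Fdps, farnesyl diphosphate synthase, at 34.2 ± 12.5 TPM and Pmvk, phosphomevalonate kinase, at 31.8 ± 12.5 TPM. In P60 β cells the next were Insig1 at 45.8 ± 6.1 TPM and Msmo1, the sterol methyl oxidase that removes methyl groups after lanosterol, at 36.1 ± 5.4 TPM. Scd1 ranked last in both, at 0.49 TPM in α cells and 0.26 TPM in β cells. On GRCm38, Hmgcs1 lies on chromosome 13 at 119690379 to 119708260 (+ strand), Msmo1 on chromosome 8 at 64718139 to 64733792 (− strand), Sqle on chromosome 15 at 59315077 to 59331192 (+ strand), Srebf1 on chromosome 11 at 60199089 to 60222581 (− strand) and Acly on chromosome 11 at 100476353 to 100528000 (− strand). Reads were counted per gene, so the values do not separate exons or transcripts. The stage of the highest group mean differed between the cell types, as a description. It was P0 for 20 of the 31 members in α cells, among them 7 of 8 mevalonate and 8 of 11 sterol genes, whereas in single β cells it was P0 for 4 members and P60 for 8, and in bulk β cells P0 for 4 and P18 for 12. Peak stages were not counted over all genes, and α cells lack P3. Whether these counts are particular to the members was not tested.

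**Figure D1:**
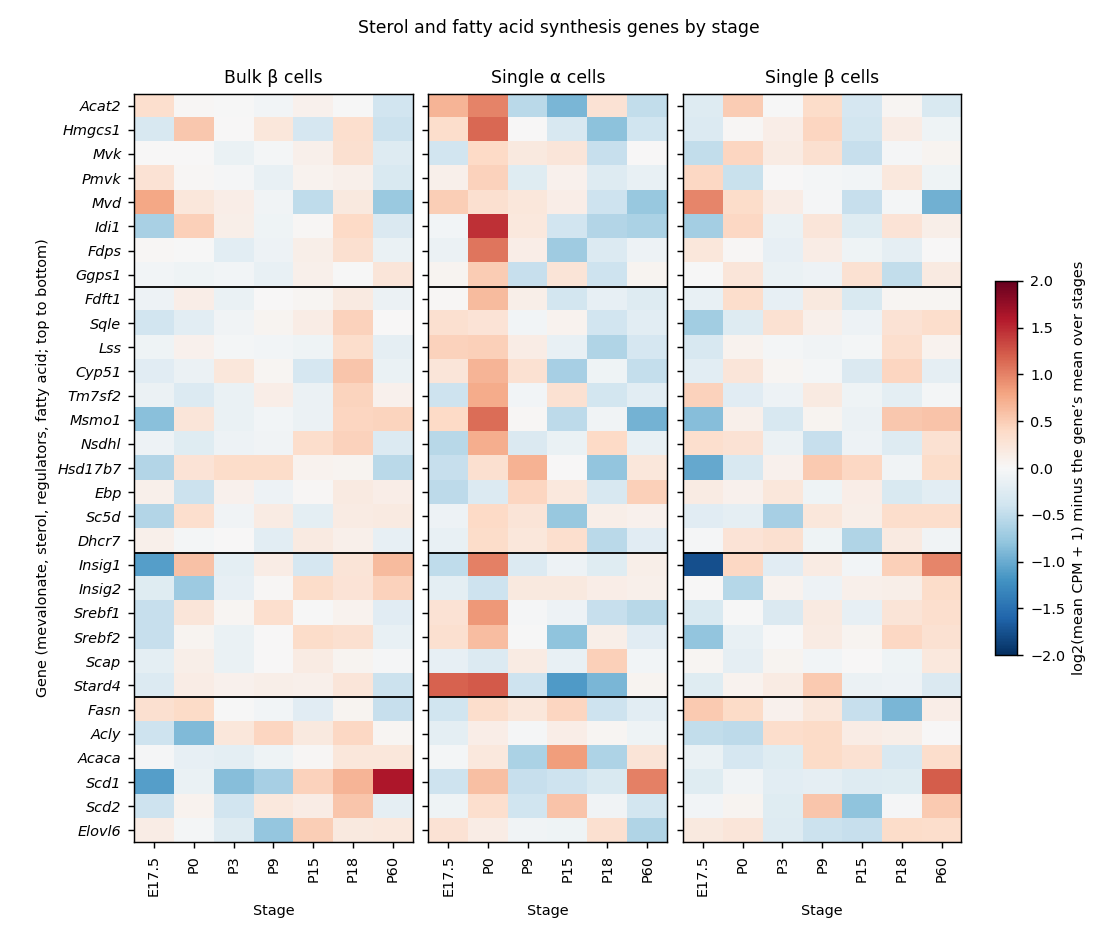
Level of each of the 31 genes by stage in bulk β cells (2 libraries per stage), single α cells and single β cells (2 to 5 batches per stage). Colour is log2(mean CPM + 1) minus the gene's mean over the stages of that panel, and rows run from the mevalonate arm at the top through the sterol arm and regulators to the fatty acid arm. The P0 column of the α panel is red for most rows of the upper 3 blocks, where 19 of the 20 members with their highest mean at P0 lie.

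The step across birth was compared first, P0 against E17.5, a comparison added after the stage profiles had been seen. In α cells P0 held the highest mean of 20 members, so this choice favours a rise there. Its p-values and shares are not those of a planned comparison. Insig1, on chromosome 5 at 28071363 to 28078662 (+ strand, GRCm38), was higher at P0 in all 3 kinds of sample. In bulk β cells it had 242 and 212 CPM at P0, against 63.2 and 75.0 CPM at E17.5. In α cells it had 87.7, 100.1 and 80.6 CPM in the P0 batches, against 29.2, 16.8, 41.5 and 35.0 CPM in the E17.5 batches. Single β cells had 116, 100.2 and 133 CPM at P0, against 13.8, 39.9 and 21.7 CPM at E17.5. No P0 value overlapped an E17.5 value in any of these sets. The log2 change was 1.72 ± 0.26 (SE; adjusted p = 0.00991, edgeR) in bulk, 1.45 ± 0.33 (adjusted p = 0.0435) in α cells and 2.29 ± 0.37 (adjusted p = 0.00195) in single β cells.

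In bulk β cells 4 members rose at P0 over E17.5, 12.9% of the 31, where 2.98% of all genes tested were called higher. Beside Insig1, they were Idi1, the isomerase that makes the reactive isoprenoid unit (41.2 and 61.8 CPM at P0, against 21.9 and 24.5 CPM at E17.5; log2 change 1.15 ± 0.28, adjusted p = 0.037), Msmo1 (75.0 and 84.0 CPM, against 36.4 and 38.3 CPM; 1.09 ± 0.26, adjusted p = 0.0344) and Sc5d (39.8 and 30.3 CPM, against 18.2 and 17.9 CPM; 0.96 ± 0.19, adjusted p = 0.0206). The P0 libraries were above both E17.5 libraries for each of these genes. Hmgcs1 stood at 158 and 193 CPM at P0, against 90.9 and 101 CPM at E17.5, without passing the test. edgeR called 0 members lower at P0 (3.36% of all genes were), with 3 at an unadjusted p under 0.05 and 0 by DESeq2, and the median change of the 31 was 0.11 on the log2 scale, against 0.03 for all genes. These calls rest on few libraries: 0 members were called without E17.5 library 1, without E17.5 library 2 or without P0 library 1, and 3 without P0 library 2 (Insig1, Sc5d and Srebf1). The calls of Idi1 and Msmo1 were lost in all 4 of these refits and those of Insig1 and Sc5d in 3. With the acinar sum as a covariate 0 were called, and the part of acinar RNA or of the animals' sex in these changes was not tested. In bulk, fewer cells of a type and less RNA per cell cannot be told apart.

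In α cells 2 members rose at P0, 6.45% of the 31, where 32 of 18537 genes (0.173%) were called higher. The other one was Fdps, with 70.7, 62.4 and 65.0 CPM at P0, against 32.3, 19.9, 30.7 and 30.2 CPM at E17.5, with no overlap. Its log2 change was 1.27 ± 0.26 (adjusted p = 0.0172, edgeR). Over all 31 members the median change was 0.43 with 26 positive, while the median over all genes was -0.01 with 49.7% positive. Xist was at 52.8 to 283 CPM in the E17.5 α batches and at most 0.394 CPM in the P0 ones. The part of the animals' sex in these changes was not tested. Idi1 stood at 59.8, 70.0 and 50.8 CPM at P0, against 12.8, 6.12, 46.3 and 16.2 CPM at E17.5, above all the E17.5 batches but without passing the test. edgeR called 0 members lower (0.0755% of all genes), with 0 at an unadjusted p under 0.05 and 0 by DESeq2. No member was called without E17.5 batch 2, P0 batch 2 or P0 batch 3, and 1, Fdps, without E17.5 batch 1, E17.5 batch 4 or P0 batch 1, so that Insig1 lost its call in 6 of 7 refits. Within the FACS-sorted (1 P0 batch) and the hand-picked batches (1 E17.5 batch) alone 0 members passed, at log2 changes for Insig1 of 1.59 (FACS) and 1.35 (hand-picked) and for Fdps of 1.36 and 1.06.

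Among single β cells, Insig1 was the 1 member called higher at P0 (3.23% of the 31), among 13 of 18537 genes (0.0701%). edgeR called 0 members lower (0.0108% of all genes), with 1 at an unadjusted p under 0.05 and 0 by DESeq2. Idi1 ranged from 26.5 to 71.2 CPM at P0 and from 11.5 to 30.5 CPM at E17.5, and Fdps from 24.8 to 57.1 CPM and from 46.1 to 59.7 CPM, both overlapping between the stages. Without E17.5 batch 1 no member was called. The Insig1 change was 2.32 within FACS-sorted batches and 2.29 within hand-picked ones, where 0 members passed, with an arm of 1 batch in each.

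**Figure D2:**
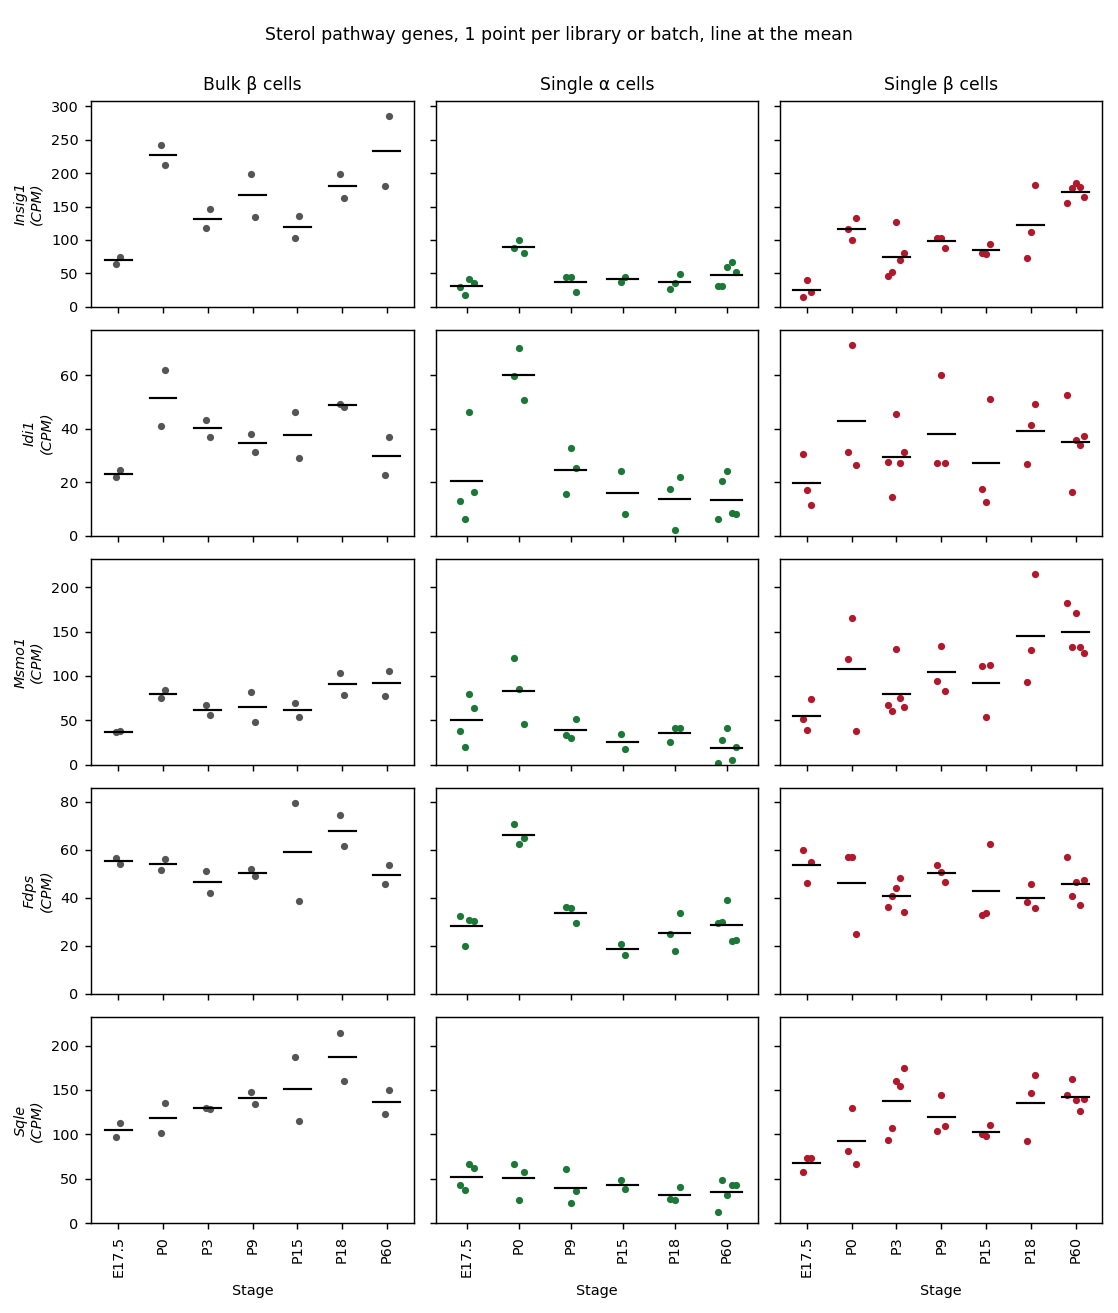
Levels (CPM) of Insig1, Idi1, Msmo1, Fdps and Sqle by stage in bulk β, single α and single β cells, with 1 point per library or batch and a line at the mean. Each row shares its y axis, and Insig1 in β cells lies at 155 to 186 CPM at P60 while α cells lie at 30.8 to 66.9 CPM.

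From P0 to P60 several members fell in α cells. P0 held the highest α mean for 20 of the 31 members, so taking it as the reference favours a fall. The p-values and shares are therefore not those of a planned comparison. In the planned α comparisons, 1 member was lower at P60 than at E17.5 and 0 were lower than at P9. Between P0 and P60, the second comparison added after the profiles had been seen, 8 of 31 members (25.8%) fell in α cells, where 3.35% of all genes were called lower. The 8 were 3 of the mevalonate arm (Hmgcs1, Idi1 and Fdps), 3 of the sterol arm (Fdft1, Cyp51 and Msmo1) and both SREBP genes, with none of the 6 fatty acid genes. Hmgcs1 had 16.1, 49.7, 35.0, 42.9 and 23.4 CPM in P60 batches, against 131, 83.0 and 84.5 CPM in P0 batches. Idi1 had 6.21, 20.4, 24.0, 8.63 and 7.96 CPM at P60, against 59.8, 70.0 and 50.8 CPM at P0. Neither gene overlapped between the stages. Their log2 changes were -1.57 ± 0.37 (adjusted p = 0.00823, edgeR) and -2.16 ± 0.58 (adjusted p = 0.023), and that of Fdps, at 22.2 to 39.0 CPM at P60, was -1.21 ± 0.24 (adjusted p = 0.0014).

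In the sterol arm, Msmo1 had 1.64, 28.1, 41.1, 5.29 and 19.5 CPM in P60 α batches, against 120, 84.9 and 46.2 CPM in P0 batches, a log2 change of -2.14 ± 0.54 (adjusted p = 0.0134, edgeR). Cyp51, the lanosterol demethylase, had 9.32 to 24.3 CPM at P60, against 38.5 to 48.7 CPM at P0 (-1.22 ± 0.27, adjusted p = 0.00475). Fdft1, squalene synthase and the first step committed to sterols, had 23.6 to 57.4 CPM, against 47.5 to 98.3 CPM (-0.93 ± 0.25, adjusted p = 0.0197), and its groups overlapped in 1 batch. Of the regulators, Srebf1 had 21.5, 22.5, 37.4, 45.6 and 18.6 CPM at P60, against 63.5, 106 and 69.8 CPM at P0, with no overlap (-1.45 ± 0.30, adjusted p = 0.00211). Srebf2 had 60.9, 52.1, 26.8, 42.4 and 30.4 CPM, against 90.6, 77.0 and 62.6 CPM, again without overlap (-0.86 ± 0.23, adjusted p = 0.0195). Insig1 itself had 30.8, 31.3, 59.1, 66.9 and 51.9 CPM at P60, below all 3 P0 batches, and its change of -0.89 ± 0.30 did not pass (adjusted p = 0.0809).

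Of the 31 members, 26 had a negative change from P0 to P60 in α cells, with a median of -0.81, while the median over all genes was -0.01. edgeR called 0 members higher (1.9% of all genes), with 0 at an unadjusted p under 0.05 and 0 by DESeq2. Leaving out P0 batch 1 left 4 calls (Idi1, Fdps, Cyp51 and Srebf1) and leaving out P60 batch 5 left 5 (Hmgcs1, Fdps, Cyp51, Msmo1 and Srebf1). Within collection methods the 8 called members were also negative. The changes were -2.73 (FACS-sorted) and -0.99 (hand-picked) for Hmgcs1, -3.50 and -1.40 for Msmo1, and -1.74 and -0.40 for Fdft1, and of these 8, Fdft1 alone passed in FACS-sorted batches (1 P0 batch) and Srebf1 alone in hand-picked ones. Among α batches, Xist was at or below 0.394 CPM at P0 and 0.164 CPM at P60, close to 0 in both. The summed level of 10 proliferation genes was 26.2 to 41.8 CPM at P60 and 58.3 to 351 CPM at P0, and the summed level of the β markers in these α batches 509 to 1240 CPM and 1140 to 3334 CPM. The median number of genes per cell was 6781 at P60 and 7940.5 at P0. The part of these in the change was not tested.

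**Figure D3:**
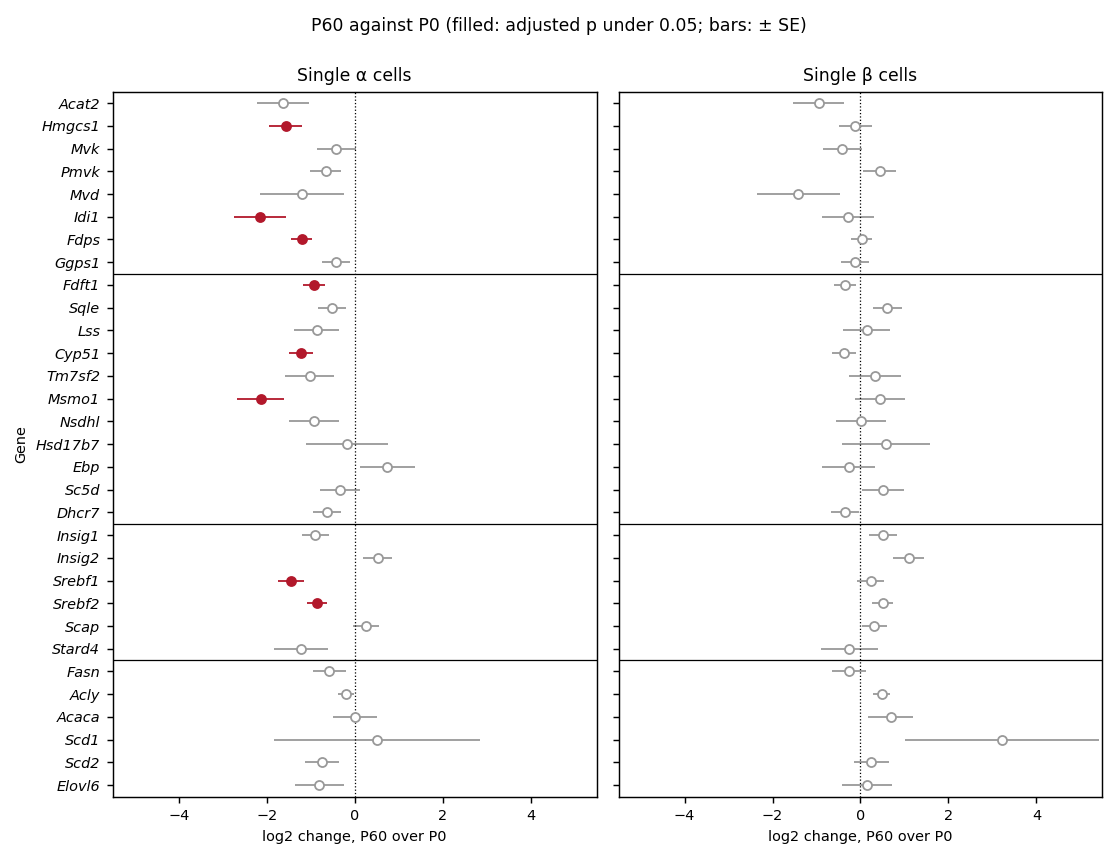
Log2 change from P0 to P60 of the 31 genes in single α cells (left, 5 and 3 batches) and single β cells (right, 5 and 3 batches), with bars of ± 1 SE and filled points at an adjusted p under 0.05. The 8 filled points are all in the α panel, between -2.16 and -0.86.

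In single β cells 0 members were called between P0 and P60, against 1.87% of all genes higher and 3.05% lower. At an unadjusted p under 0.05 there were 3 higher and 0 lower, and DESeq2 called 1, Insig2, the second SCAP anchor, with 41.3 to 68.1 CPM at P60 and 10.9 to 38.6 CPM at P0 (log2 change 1.09 ± 0.34, adjusted p = 0.0567, edgeR). It was also called without P0 batch 2 or without P60 batch 1. The median change of the 31 was 0.15 with 19 positive, and it turned to -0.51 with 5 positive, and 6 members called lower, on means over cells of log2(TPM + 1), where the median of all genes was itself -0.21. FACS-sorted β batches alone gave 0 calls. Hand-picked ones gave 3 higher (Pmvk, Sc5d and Insig2), against 1 P0 batch of 9 cells that was the lowest of the P0 batches for each, at 3.87, 7.58 and 10.9 CPM. The α change minus the β change was tested directly and was more negative in α cells for 2 members: Srebf1 (-1.68 ± 0.43, adjusted p = 0.0435, edgeR) and Srebf2 (-1.36 ± 0.33, adjusted p = 0.0284). This is 6.45% of the members, where 0.545% of all genes were called lower and 0.496% higher, and 29 of the 31 differences were negative with a median of -0.95 (also 29, with a median of -0.94, on means of log2(TPM + 1)). Within FACS-sorted and hand-picked batches alone neither Srebf1 (-1.93 and -1.62) nor Srebf2 (-1.55 and -1.37) passed. edgeR called 0 members more positive in α cells, with 0 at an unadjusted p under 0.05 and 0 by DESeq2. This difference also rests on P0 as the reference, which was picked after the profiles had been seen. The difference missed the threshold for Fdps (-1.23 ± 0.35, adjusted p = 0.0727) and Msmo1 (-2.59 ± 0.79, adjusted p = 0.11). No member was called when any 1 of α P0 batches 1 or 2, β P0 batches 1 or 4, or β P60 batches 1 or 2 was left out, 1 was called without α P60 batch 1, 2 or 5, β P0 batch 2 or β P60 batch 3 or 5, and RLE size factors in place of TMM also left 1. Srebf1 lost its call in 12 of 16 such refits and Srebf2 in 7.

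In bulk β cells the change from P0 to P60 went both ways. Members called higher were 3 (9.68%, against 18.6% of all genes): Insig2, with 54.3 and 74.9 CPM at P60, against 26.5 and 29.0 CPM at P0 (log2 change 1.22 ± 0.17, adjusted p = 0.000355, edgeR), and Acly and Scd1, given with the fatty acid genes. Members called lower were 4 (12.9%, against 20.9% of all genes). They were Mvd, mevalonate diphosphate decarboxylase (7.01 and 5.69 CPM at P60, against 11.9 and 14.7 CPM at P0; -1.07 ± 0.24, adjusted p = 0.00506), Hmgcs1 (71.5 and 106 CPM, against 158 and 193 CPM; -0.98 ± 0.33, adjusted p = 0.0366), Idi1 (22.8 and 37.0 CPM, against 41.2 and 61.8 CPM; -0.78 ± 0.27, adjusted p = 0.0418) and Fasn, fatty acid synthase (166 and 182 CPM, against 282 and 345 CPM; -0.85 ± 0.21, adjusted p = 0.00867). Neither share exceeded that of all genes. With the acinar sum as a covariate 0 members were called. Without P60 library 2 there were 4 (Idi1, Lss, Insig2 and Fasn), and Hmgcs1 lost its call whichever of the 4 libraries was left out.

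From E17.5 to P60, a planned comparison, bulk β cells had 5 members higher (16.1%, against 13.8% of all genes) and 3 lower (9.68%, against 15.2%). The higher ones were Insig1 (180.4 and 286 CPM at P60; log2 change 1.75 ± 0.26, adjusted p = 0.000574, edgeR), Msmo1 (77.4 and 106 CPM; 1.30 ± 0.26, adjusted p = 0.00335), Sc5d (26.8 and 36.3 CPM; 0.81 ± 0.19, adjusted p = 0.00894), Insig2 (0.72 ± 0.17, adjusted p = 0.00812) and Scd1. The lower ones were Mvd (7.01 and 5.69 CPM at P60, against 19.0 and 20.8 CPM at E17.5; -1.65 ± 0.24, adjusted p = 0.000504), Pmvk (-0.62 ± 0.19, adjusted p = 0.0308) and Fasn. The call of Pmvk was lost whichever of the 4 libraries was left out. Without E17.5 library 2, or without P60 library 2, the same 4 were called (Mvd, Msmo1, Insig1 and Scd1), and with the acinar covariate 3 (Mvd, Sc5d and Insig1). Over all 7 stages together 8 members were called (25.8%, against 31.2% of all genes): Mvd, Msmo1, Sc5d, Insig1, Insig2, Acly, Scd1 and Elovl6. That count was 5 without E17.5 library 1 and 15 without P15 library 2.

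At P60, 3 members rose over E17.5 in single β cells (9.68%, against 3.08% of all genes). Insig1 had 155, 178, 186, 179 and 164 CPM at P60, all far above the 3 E17.5 batches at 13.8, 39.9 and 21.7 CPM. Its log2 change was 2.79 ± 0.35 (adjusted p = 6.22e-07, edgeR), and it was 2.88 within the FACS-sorted batches, with 1 batch at E17.5, and 2.75 within the hand-picked ones. Srebf2 had 82.6, 68.6, 44.3, 55.5 and 59.6 CPM at P60, against 26.1, 32.5 and 26.9 CPM at E17.5, with no overlap (1.10 ± 0.24, adjusted p = 0.00244). Sqle, squalene epoxidase, a rate-controlling step of the sterol arm, had 144, 163, 139, 126 and 139 CPM, against 57.1, 73.3 and 72.9 CPM, also without overlap (1.07 ± 0.33, adjusted p = 0.0426), but its call was lost whichever of the 8 batches was left out, within each collection method and with the replicate block. edgeR called 0 members lower (3.89% of all genes), with 1 at an unadjusted p under 0.05 and 0 by DESeq2. Another scaling changed this split. On means over cells of log2(TPM + 1), where the median of all genes itself fell by 0.31, 1 member was higher (Insig1) and 11 were lower, and Sqle changed by -0.15. Within each collection method Insig1 alone passed. Over all stages together 3 members were called in β cells (9.68%, against 7.09% of all genes): Insig1, Srebf2 and Acly, with 0 in FACS-sorted and 5 in hand-picked batches alone.

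α cells between E17.5 and P60 gave 1 call, Srebf1, which was lower at P60 (21.5, 22.5, 37.4, 45.6 and 18.6 CPM, against 57.3, 42.0, 53.2 and 59.3 CPM at E17.5, overlapping in 1 batch; log2 change -1.04 ± 0.28, adjusted p = 0.0144, edgeR). This is 3.23% of the members, where 5.66% of all genes were called lower. Xist was at 52.8 to 283 CPM in the E17.5 α batches and at most 0.164 CPM in the P60 ones. The part of the animals' sex in this change was not tested. edgeR called 0 members higher (4.3% of all genes), with 1 at an unadjusted p under 0.05 and 0 by DESeq2. Without E17.5 batch 2, P60 batch 2 or P60 batch 3 the count was 2. Srebf1 passed neither within FACS-sorted batches (-1.33, adjusted p = 0.0614) nor within hand-picked ones (-0.78, adjusted p = 0.288). On means of log2(TPM + 1), where the median of all genes fell by 0.44, 22 members were lower and 0 higher. Over all stages 7 members were called in α cells (22.6%, against 10.5% of all genes). They were Hmgcs1, Fdps, Cyp51, Insig1, Srebf1, Srebf2 and Stard4, a sterol carrier protein, so 4 of the 6 regulators and transport genes. Without P0 batch 1 the count was 4, and within each collection method alone it was 2.

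The middle of the series, P9, gave fewer calls. In bulk, 3 members were higher at P9 than at E17.5 (9.68%, against 4.69% of all genes), namely Insig1 (log2 change 1.27 ± 0.26, adjusted p = 0.0119, edgeR), Sc5d (0.80 ± 0.19, adjusted p = 0.0257) and Acly, and 2 were lower (6.45%, against 3.49%), Mvd (-0.90 ± 0.23, adjusted p = 0.0361) and Elovl6. No member was called without either E17.5 library or P9 library 1, and without P9 library 2 there were 3 (Insig1, Elovl6 and Msmo1), so that Acly, Sc5d and Mvd lost their calls in all 4 refits. From P9 to P60 in bulk 2 were higher (6.45%, against 6.79% of all genes), Scd1 and Elovl6, and edgeR called 0 lower (9.43% of all genes), with 4 at an unadjusted p under 0.05 and 2 by DESeq2. That comparison gave 0 calls without P9 library 1 or without P60 library 2. Single β cells had 2 members higher at P9 than at E17.5 (6.45%, against 0.707% of all genes), Insig1 (103, 103 and 88.5 CPM at P9; 1.97 ± 0.36, adjusted p = 0.0012) and Acly. 0 were lower (0.545% of all genes; 0 at an unadjusted p under 0.05 and 0 by DESeq2). Insig1 alone was called without any 1 of the 3 E17.5 batches or without P9 batch 2, and 0 within either collection method. On means of log2(TPM + 1), where the median of all genes fell by 0.28, 1 was higher and 6 were lower.

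Between P9 and P60 edgeR called 0 members in β cells in either direction (0.173% of all genes higher and 0.453% lower), with 1 and 1 at an unadjusted p under 0.05 and 0 by DESeq2. In α cells it called 0 between E17.5 and P9 (2.18% of all genes higher and 1.31% lower), with 0 higher and 2 lower at an unadjusted p under 0.05 and 0 by DESeq2. From P9 to P60 it called 0 in α cells (0.281% higher and 0.566% lower), with 1 higher and 2 lower at an unadjusted p under 0.05 and 0 by DESeq2. Without α P9 batch 2 each of these α comparisons gave 1 call, Stard4. On means of log2(TPM + 1), where the median of all genes fell by 0.39, 16 members were lower in α cells at P9 than at E17.5 and 0 higher.

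Set against each other over the 6 shared stages, α cells expressed 10 of the 31 members below β cells (32.3%, where 14.6% of all genes were lower in α cells). The largest differences were in Acly (log2 difference -1.52 ± 0.08, adjusted p = 2.24e-17, edgeR), Msmo1 (-1.45 ± 0.25, adjusted p = 1.56e-05), Sqle (-1.36 ± 0.15, adjusted p = 1.46e-09), Scd2, a stearoyl-CoA desaturase (-1.20 ± 0.18, adjusted p = 9.01e-07), Cyp51 (-1.04 ± 0.13, adjusted p = 1.87e-08) and Insig1 (-0.99 ± 0.14, adjusted p = 5.51e-07). Srebf1, Fdps, Insig2 and Fdft1 were also lower, by 0.94, 0.59, 0.50 and 0.45 on the log2 scale. edgeR called 0 members higher in α cells (14.1% of all genes), with 2 at an unadjusted p under 0.05 and 2 by DESeq2. The median over the members was -0.41 with 26 of 31 negative, and over all genes 0.05. Within collection methods the differences were -1.78 (FACS-sorted) and -1.32 (hand-picked) for Acly and -1.49 and -1.25 for Sqle. They were smallest for Fdps (-0.83 and -0.30), Fdft1 (-0.46 and -0.45) and Insig2 (-0.38 and -0.45). Fdps and Fdft1 missed the threshold in hand-picked batches and Insig2 in FACS-sorted ones. The count of called members stayed between 10 and 14 when any 1 batch was left out. The split moved with the scale and the collection method: 6 were higher and 9 lower on means of log2(TPM + 1), and 4 were higher and 11 lower in hand-picked batches alone.

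The gap differed with age. At E17.5, in a contrast added after the profiles had been seen, 2 members were lower in α cells (6.45%, against 5.06% of all genes). They were Acly (397, 368, 401 and 359 CPM in α cells, against 996, 966 and 836 CPM in β cells; log2 difference -1.21 ± 0.19, adjusted p = 1.91e-05, edgeR) and Fdps (-0.97 ± 0.26, adjusted p = 0.0114). Srebf2 was higher in α cells (61.1, 49.6, 89.4 and 50.1 CPM, against 26.1, 32.5 and 26.9 CPM in β cells; 1.07 ± 0.25, adjusted p = 0.00415), which is 3.23% of the members, where 3.25% of all genes were. Within FACS-sorted and hand-picked batches alone, each with an arm of 1 batch, the values were -1.14 and -1.43 for Acly, which passed, and 1.28 and 0.79 for Srebf2 and -1.03 and -0.79 for Fdps, which did not. On means of log2(TPM + 1), where the median of all genes was 0.18, 4 members were higher and 3 lower. At P60, added in the same way, 9 members were lower in α cells (29%, against 7.02% of all genes). Msmo1 had 1.64 to 41.1 CPM in α batches, against 126 to 182 CPM in β batches (-2.97 ± 0.51, adjusted p = 4.34e-05), and Sqle 12.7, 48.5, 31.1, 42.9 and 42.5 CPM, against 126 to 163 CPM (-2.0 ± 0.29, adjusted p = 2.48e-06). Srebf1 had 18.6 to 45.6 CPM, against 81.6 to 127 CPM (-1.86 ± 0.27, adjusted p = 3.43e-06), and Insig1 30.8 to 66.9 CPM, against 155 to 186 CPM (-1.85 ± 0.28, adjusted p = 4.97e-06). For none of these 4 genes did an α batch reach the lowest β batch. The others were Scd2 (-2.14 ± 0.35), Acly (-1.67 ± 0.16), Cyp51 (-1.36 ± 0.24), Fdft1 (-0.75 ± 0.22) and Fdps (-0.67 ± 0.21). The split depends on the scale. By mean TPM, without TMM scaling, Fdps (34.2 in α and 26.8 in β cells) and Fdft1 (18.5 and 15.6) were higher in α cells at P60. The other called members stayed lower in α cells. Some uncalled members were higher there too, such as Pmvk (31.8 and 12.2 TPM) and Ebp (24.9 and 10.6 TPM). edgeR called 0 members higher in α cells at P60 (5.92% of all genes), with 0 at an unadjusted p under 0.05 and 0 by DESeq2. Within collection methods 7 of the 9 passed in each: Fdps passed in neither, Cyp51 missed in FACS-sorted batches and Fdft1 in hand-picked ones. The Msmo1 difference was -3.90 (FACS-sorted) and -2.56 (hand-picked).

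**Figure D4:**
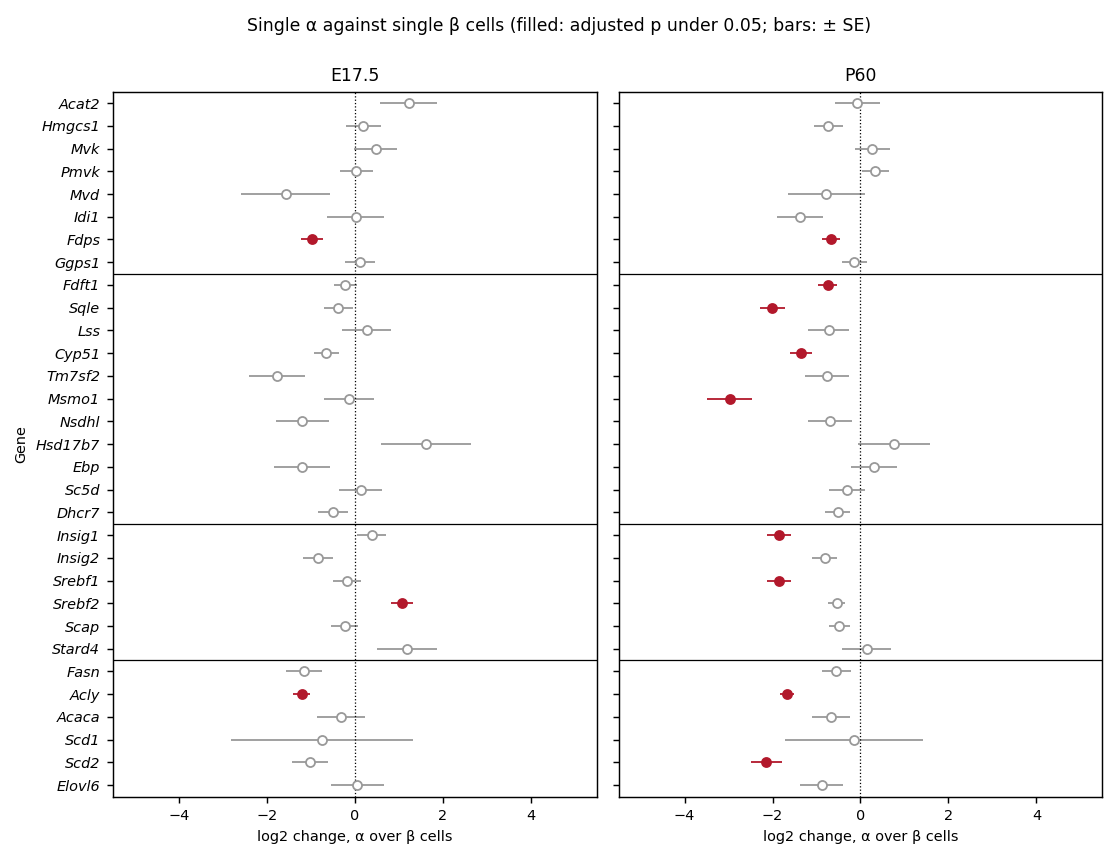
Log2 difference of the 31 genes in single α over single β cells at E17.5 (left, 4 and 3 batches) and at P60 (right, 5 and 5 batches), with bars of ± 1 SE and filled points at an adjusted p under 0.05. At E17.5 there are 3 filled points, 1 of them above 0 (Srebf2), and at P60 there are 9, all below 0.

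Whether the change from E17.5 to P60 itself differed was tested as α change minus β change. It was more negative in α cells for 5 members (16.1%, against 1.65% of all genes): Msmo1 (-2.84 ± 0.77, adjusted p = 0.0276, edgeR), Insig1 (-2.24 ± 0.44, adjusted p = 0.00138), Srebf1 (-1.68 ± 0.42, adjusted p = 0.0152), Sqle (-1.63 ± 0.45, adjusted p = 0.0281) and Srebf2 (-1.61 ± 0.32, adjusted p = 0.00179). edgeR called 0 more positive in α cells (2.02% of all genes), with 0 at an unadjusted p under 0.05 and 0 by DESeq2. At E17.5 Xist was at 52.8 to 283 CPM in α batches and 0.119 to 143 CPM in β batches, and low in both at P60. The part of the animals' sex in these differences was not tested. Insig1 and Srebf2 remained called without any 1 batch, including β E17.5 batch 1, without which they were the 2 left. The count was 3 (Insig1, Srebf1 and Srebf2) without α E17.5 batch 3 or batch 4. Within FACS-sorted and hand-picked batches alone 0 members passed, at values of -2.37 and -2.19 for Insig1 and -3.15 and -3.08 for Msmo1.

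The fatty acid arm followed other profiles. Acly, the highest-ranked member in single cells, was higher in β cells at P9 than at E17.5 by CPM, though not on means of log2(TPM + 1). In bulk it had 2648 and 2463 CPM at P9, against 1359 and 1475 CPM at E17.5 (log2 change 0.85 ± 0.22, adjusted p = 0.039, edgeR), and in single β cells 1619, 1759 and 1767 CPM at P9, against 996, 966 and 836 CPM (0.89 ± 0.20, adjusted p = 0.0132). Its P9 values lay above every E17.5 value in both assays, while on means of log2(TPM + 1) its single-cell change was -0.12. In bulk it stood at 1680 and 2217 CPM at P60, against 894 and 1169 CPM at P0 (0.92 ± 0.23 for P60 over P0, adjusted p = 0.0082). In α cells its group means lay between 381 and 482 CPM at all 6 stages.

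Fasn fell in bulk, with 166 and 182 CPM at P60, against 273 and 326 CPM at E17.5 (log2 change -0.78 ± 0.21, adjusted p = 0.0164, edgeR). This call was lost in 3 of 4 refits without 1 library, and with the acinar covariate. In single β cells Fasn had 35.2 to 71.9 CPM at P60 and 55.1 to 86.3 CPM at E17.5, overlapping and not called. Elovl6, which elongates saturated fatty acids, was lowest in bulk at P9, with 22.5 and 32.1 CPM, against 57.7 and 47.8 CPM at E17.5 (-0.96 ± 0.25, adjusted p = 0.0357), and had 53.3 and 56.1 CPM at P60 (1.01 ± 0.25 for P60 over P9, adjusted p = 0.0198). No P9 library reached a library of either other stage, but each of the Elovl6 calls was lost in 3 of 4 refits without 1 library.

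Of the desaturases, Scd1 was low throughout in bulk but higher at P60, with 8.36 and 11.6 CPM, against 0.443 and 0.888 CPM at E17.5 (log2 change 3.91 ± 0.62, adjusted p = 0.000842, edgeR), 2.63 and 1.9 CPM at P0 (2.12 ± 0.55, adjusted p = 0.0112) and 1.42 and 1.10 CPM at P9 (2.96 ± 0.58, adjusted p = 0.00779). With the acinar covariate Scd1 was not called at P60 over E17.5 (4.56, adjusted p = 0.0517). In single β cells Scd1 was at 0 to 4.18 CPM at P60 and in α cells at 0 to 5.23 CPM, not called in either. Scd2 had 247 and 369 CPM in bulk at P60, against 227 and 297 CPM at E17.5, a difference within the spread. At P60 it had 4.75 to 45.1 CPM in α batches, against 102 to 161 CPM in β batches, with no overlap.

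**Figure D5:**
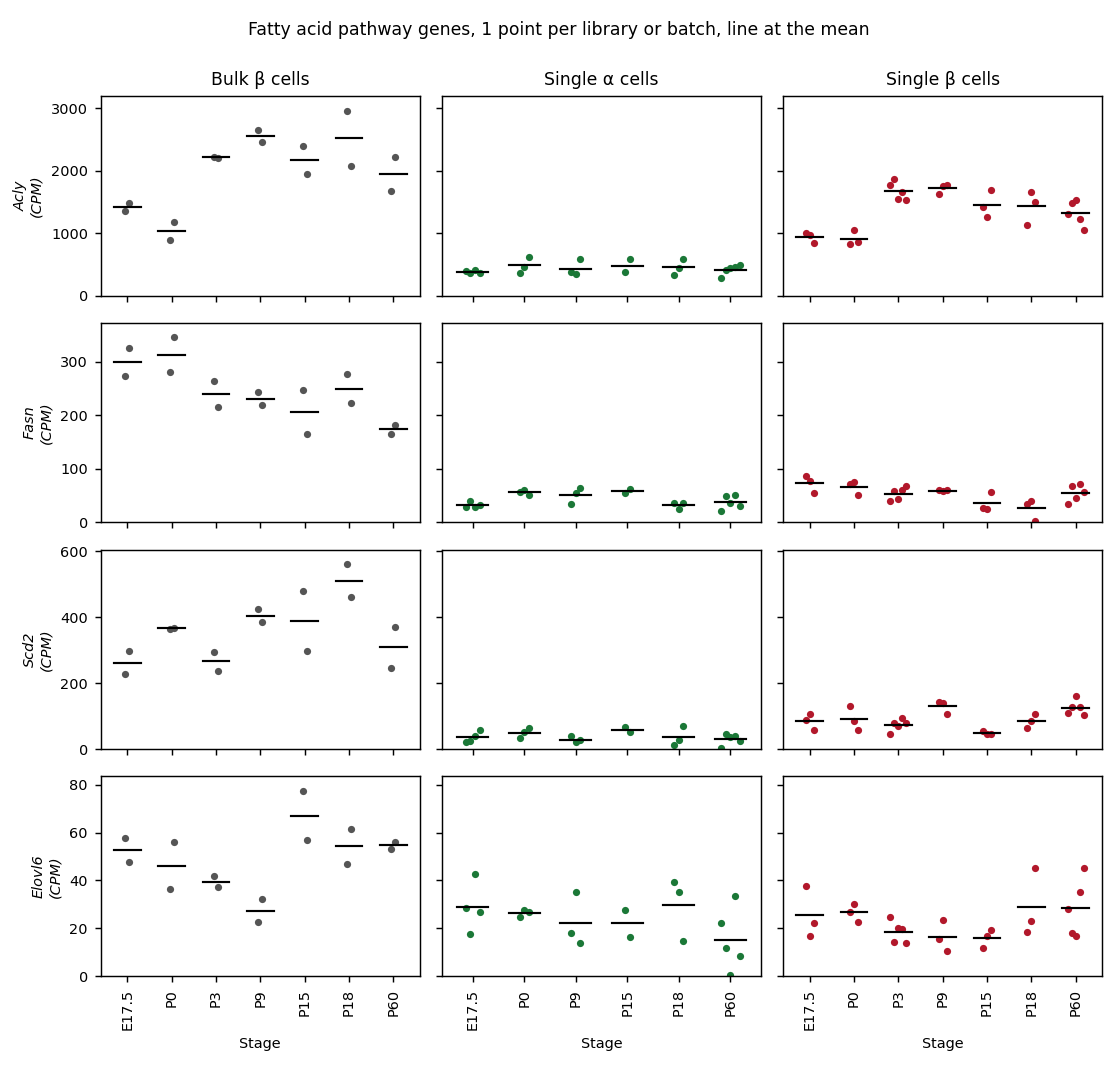
Levels (CPM) of Acly, Fasn, Scd2 and Elovl6 by stage in bulk β, single α and single β cells, with 1 point per library or batch, a line at the mean and a shared y axis in each row. Acly in β cells steps up between P0 and P3 in both assays, and in α cells its group means stay between 381 and 482 CPM.

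Of the 31 members, 12 were called in no comparison of 2 groups: Acat2, Mvk and Ggps1 of the mevalonate arm, Lss, Tm7sf2, Nsdhl, Hsd17b7, Ebp and Dhcr7 of the sterol arm, Scap and Stard4, and Acaca, acetyl-CoA carboxylase. The share of all genes called in no such comparison was not computed, so this count cannot be read as high or low. In α cells at P60 the group means of these 12 ran from 6.55 CPM (Acat2, a cytosolic thiolase) to 31.0 CPM (Ebp, a sterol isomerase), and in β cells from 6.81 CPM (Acat2) to 38.2 CPM (Scap). Nsdhl and Ebp lie on the X chromosome. Several members share exonic bases with a neighbour, and the strand setting of the counting is not given in the sources used here: Fdps shares 26.7% of its exonic bases (with Gm43738), Fdft1 18.3% (with Ctsb, on the other strand), Scap 13.2%, Hmgcs1 12.1%, Tm7sf2 12.1% and Idi1 9.22%. Reads of Acat2 and of the Scd genes can also be split with near-identical copies.

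Genes around the pathway were read from 3 further lists. Of 30 other sterol and lipid handling genes, 11 were lower and 4 higher in α than in β cells over the shared stages, and of 12 fatty acid oxidation genes 1 was lower and 3 were higher (36.7% and 13.3% of the first list and 8.33% and 25% of the second, against 14.6% lower and 14.1% higher over all genes). Mlxipl, which encodes the glucose-responsive factor ChREBP, averaged 10.7 ± 5.67 CPM in α cells at P60 and 320 ± 33.4 CPM in β cells (log2 difference -4.93 ± 0.30, adjusted p = 4.7e-15, edgeR). Hadh, a dehydrogenase of fatty acid oxidation whose loss in people causes excess insulin secretion, averaged 11.8 ± 6.97 CPM and 1004 ± 81.3 CPM (-6.48 ± 0.35, adjusted p = 4.56e-16). The gap was wide at E17.5 too, with Hadh at 52.7 ± 15.0 CPM in α cells (SD, n = 4) and 731 ± 40.4 CPM in β cells (SD, n = 3). In α cells Hadh fell at P60 relative to E17.5 (-2.09 ± 0.30, adjusted p = 7.46e-06), among 4 of the 12 oxidation genes that fell (33.3%, against 5.66% of all genes).

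Of 15 elongases, desaturases and acyl-CoA synthetases tested, 3 rose in single β cells at P60 over E17.5 and 0 fell (20%, against 3.08% of all genes higher), and in bulk 6 rose and 0 fell (40%, against 13.8%). Elovl5, an elongase of polyunsaturated fatty acids, averaged 180 ± 34.7 CPM at P60 (SD, n = 5) and 47.7 ± 18.5 CPM at E17.5 (SD, n = 3) in single β cells (log2 change 1.93 ± 0.27, adjusted p = 5.65e-06, edgeR). In α cells it averaged 31.9 ± 9.74 CPM at P60 (SD, n = 5) and 41.3 ± 9.07 CPM at E17.5 (SD, n = 4), and the change differed between the cell types (-2.26 ± 0.35, adjusted p = 8.32e-05). Aacs, which activates acetoacetate for lipid synthesis, went the other way in β cells, with 76.8 ± 14.6 CPM at P60 and 248 ± 35.6 CPM at E17.5 (-1.68 ± 0.26, adjusted p = 3.24e-05). Elovl2, the elongase that acts after Elovl5, averaged 14.2 ± 8.86 CPM in P60 α cells (SD, n = 5) and 77.6 ± 6.94 CPM in P0 α cells (SD, n = 3), a log2 change of -2.45 ± 0.53 (adjusted p = 0.00384). In bulk at P0, Lpin1 and Gpam, which act in triglyceride synthesis, were higher than at E17.5 by 1.78 ± 0.31 (adjusted p = 0.0145, edgeR) and 1.28 ± 0.25 (adjusted p = 0.0201) on the log2 scale. They were among 3 of the 30 sterol and lipid handling genes called higher (10%, against 2.98% of all genes). Their calls were not followed without 1 library or with the acinar covariate, under which no member kept its call in this comparison.

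In β cells enriched for proliferation, edgeR called 0 members higher and 0 lower than in unselected β cells of the same stages (0.044% and 0.201% of 20445 genes), with 0 higher and 8 lower at an unadjusted p under 0.05 and 0 by DESeq2. The enriched batches carried the proliferation genes at a summed level of 1969 CPM (P0) and 1774 CPM (P9), against 129 to 1290 CPM and 210 to 443 CPM in unselected batches of those stages. That list includes Cdk1, a gene by which the PCR screen chose the cells, so the sum is not independent of the selection. Insig1 had 60.0 CPM in the enriched batch and 100.2 to 133 CPM in the unselected batches at P0, and 52.3 CPM and 88.5 to 103 CPM at P9. Hmgcs1 had 23.9 CPM and 35.9 to 95.1 CPM at P0, and 37.5 CPM and 79.0 to 82.2 CPM at P9. Both genes were thus below every unselected batch at both stages, without passing the test. Each stage has only 1 enriched batch, and how many members or genes in all lay apart in this way was not counted. The CPM of enriched and of unselected batches given here also come from separate fits, each with its own TMM scaling. The median log2 difference over the 31 was -0.64 with 28 negative, but over all genes it was itself -0.33.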

How the data were processed

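The authors deposited read counts per gene for each bulk library and each cell. The submitters' processing notes name TopHat2 2.1.0, HTSeq 0.6.0 and DESeq 1.20.0 and the builds GRCm38 and mm10, without giving their roles here; the strand setting of the counting is not given in the sources used here. For single cells, each batch's counts were added up; all counts were scaled by TMM and tested with edgeR 4.0.16 (R 4.3.3; quasi-likelihood, Benjamini-Hochberg adjusted p under 0.05) over all genes passing filterByExpr, with collection method as a term in single cells. DESeq2 1.42.0, RLE factors, no filter, each collection method alone, limma 3.58.1 on log2(TPM + 1), an acinar covariate and leaving out each library were alternatives. In single-cell refits without a batch the dispersion trend of the full fit was kept. Spike-in counts took a median of 2.78% of cell reads and stayed out. Tests were also run on simulated counts, drawn from the dispersion trend with large changes set in. Those counts held no batch or method effects, so that run cannot vouch for the smaller changes called here. Multihormonal cells and P0 hormone-negative cells were not analysed here. Named throughout were Insig1, Srebf1, Srebf2, Hmgcs1, Sqle, Fasn, Scd1 and Scd2, plus per comparison up to 6 called members of largest change whose higher group reached 5 CPM and, of the other lists, up to 3 genes of smallest p; further members are named where counts are small, chosen after their values were seen. The members and lists were chosen with earlier results of these data known.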

Additional observations from a re-analysis of the deposited data

Results flagged for a closer look

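Of 124 combinations of a member and a group of 4 or 5 batches that were checked, 9 held 1 batch that stood apart from the rest of its group, where chance flags about 1 in 20. In α cells at E17.5, batch 3 stood high for Lss (64.4 CPM, the others 19.4 to 26.0 CPM) and Cyp51 (46.7 CPM, the others 23.8 to 27.2 CPM). Batch 2 of that group stood low for Fdps (19.9 CPM, the others 30.2 to 32.3 CPM) and batch 4 high for Scap (30.3 CPM, the others 22.9 to 23.5 CPM). In β cells at P60, batch 2 stood high for Hsd17b7 (21.3 CPM, the others 3.29 to 5.34 CPM) and Acaca (44.9 CPM, the others 16.8 to 24.6 CPM). In β cells at P3, batch 2 stood low for Hmgcs1 (50.5 CPM, the others 65.5 to 71.2 CPM), batch 3 high for Msmo1 (130 CPM, the others 60.4 to 75.2 CPM) and batch 5 high for Dhcr7 (52.6 CPM, the others 26.2 to 31.9 CPM).

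The change with age differed between α and β cells by a direct test for the following members. For P60 over E17.5, the α minus β difference of the log2 changes was -1.63 for Sqle, -2.84 for Msmo1, -2.24 for Insig1, -1.68 for Srebf1 and -1.61 for Srebf2. For P60 over P0 it was -1.68 for Srebf1 and -1.36 for Srebf2.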

How the results depend on the processing

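Leaving out 1 library or batch gave these counts of called members. In bulk they ran 5 to 15 over stages, 4 to 7 for P60 over E17.5, 0 to 3 for P9 over E17.5, 0 to 3 for P60 over P9, 0 to 3 for P0 over E17.5 and 4 to 5 for P60 over P0. In single β cells they ran 2 to 3 over stages, 2 to 2, 1 to 2, 0 to 0, 0 to 1 and 0 to 1 in the same order, and in α cells 4 to 9, 1 to 2, 0 to 1, 0 to 1, 0 to 2 and 4 to 9. They ran 10 to 14 for α over β, 2 to 5 for the difference of change from E17.5, 0 to 3 for that from P0, 2 to 3 for α over β at E17.5, 8 to 10 at P60 and 0 to 0 for enriched cells. DESeq2 gave 14, 8 and 4 members in bulk over stages, for P9 over E17.5 and for P60 over P9. It gave 1 in β cells for P60 over P0, 11 in α cells over stages, 2 for P60 over E17.5 in α cells, 4 for the difference of change from P0 and 5 for α over β at E17.5. RLE factors gave 1 for the difference of change from P0, and leaving out the hormone genes gave 1 in β cells for P60 over P0. Without the low-count filter bulk gave 18 over stages, 9 for P9 over E17.5, 6 for P60 over P9 and 8 for P0 over E17.5. The acinar covariate gave 5 over stages, 3 for P60 over E17.5, 1 for P9 over E17.5, 0 for P0 over E17.5 and 0 for P60 over P0.

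FACS-sorted batches alone gave, in β cells, 0 over stages, 1 for P60 over E17.5, 0 for P9 over E17.5 and 0 for P0 over E17.5. In α cells they gave 2 over stages, 1 for P60 over P9, 0 for P0 over E17.5 and 2 for P60 over P0, and they gave 0 and 1 for the differences of change from E17.5 and from P0 and 1 for α over β at E17.5. Hand-picked batches alone gave, in β cells, 5 over stages, 1 for P60 over E17.5, 0 for P9 over E17.5, 0 for P0 over E17.5 and 3 for P60 over P0. In α cells they gave 2 over stages, 0 for P60 over E17.5, 0 for P0 over E17.5 and 1 for P60 over P0, and they gave 0 for the difference of change from E17.5; the enriched cells could not be fitted in them. Means of log2(TPM + 1) gave, in β cells, 13 over stages, 12 for P60 over E17.5, 7 for P9 over E17.5, 2 for P0 over E17.5 and 6 for P60 over P0. In α cells they gave 25, 22, 16, 4 and 24 in that order, and they gave 5 for the difference of change from P0 and 7 for α over β at E17.5. On that scale 2 called values turned sign, Sqle in β cells for P60 over E17.5 (-0.15) and Acly in β cells for P9 over E17.5 (-0.12). The cause was not tested. Of the called log2 values of members, 731 of 861 kept their call when 1 library or batch was left out and 130 kept only their direction. The losses were uneven. Each call of α over β cells over the shared stages was kept in all 40 of its refits. A bulk call was lost in 0 to 4 of its 4 refits, and in bulk more of these values lost their call than kept it.

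The labels do not say that a replicate number marks shared animals or days, and not every same-numbered pair correlated above 0.1, so the samples were taken to share a number only. Over 42 same-numbered pairs in bulk the correlation of deviations had a median of 0.0486, and over 217 pairs in single cells -0.000843. In bulk, 14 of the 42 pairs were above 0.1 and 12 of 14 libraries correlated best with their own number, at most a weak hint of pairing. With 2 libraries per stage the 2 deviations are equal and opposite, so these counts take in each result 2 times. With only 2 numbers, many libraries would also match their own by chance. With the replicate block, bulk gave 8 over stages, 8 for P60 over E17.5 and 4 for P0 over E17.5, α cells gave 7 for P60 over P0, and α over β gave 13. Of 72 called values, 68 kept their call with the block; the other 4 were Acly for P9 over E17.5 and Idi1 for P60 over P0 in bulk, Sqle for P60 over E17.5 in β cells and Srebf2 for P60 over P0 in α cells. Small groups of 2 to 5 samples, 10.3 M to 21.4 M reads per bulk library and batches of 5 to 39 cells limit what could be called.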
